A study of Mus musculus with 12 samples.

Results

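Id2 and Id3, inhibitors of the E protein transcription factors, and the E proteins Tcf3, Tcf12 and Tcf4 were followed across regulatory T cells (Tregs) of mice. The 5 genes were taken by symbol from a table of 23361 gene rows, and all 5 were among the 10868 genes with enough signal to be tested. They were picked because Id2 is higher in islet libraries, so every islet value set against a lymph node value is a description of these 5 genes and carries no test. The genotype played no part in the choice and was tested.

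RNA-seq was available for 12 libraries of Tregs in an autoimmune diabetes model, 3 in each of 4 groups: Lag3-deficient cells from pancreatic islets, Wt cells from islets, Lag3-deficient cells from non-draining lymph nodes (NDL) and Wt cells from NDL. Lag3 is an inhibitory receptor of T cells; the sources used here give neither the allele nor the mouse strain, age, sex or sorting scheme. The labels call the material cytoplasmic RNA. No label states that the libraries of a group came from different animals, so the p-values cover the spread among these samples, which could be purely technical.

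Id proteins carry a helix-loop-helix domain but lack the basic region that contacts DNA. They pair with E proteins and keep them from binding the E box, the short DNA motif through which E proteins activate their targets. In T cells the balance of the families is known for its part in thymic development, in effector differentiation and in the maintenance of Tregs. Tcf3 encodes E2A, Tcf12 encodes HEB and Tcf4 encodes E2-2. The unrelated Wnt pathway factors that share older names with them stand in rows of their own, Tcf7l1 (at most 2.18 CPM) and Tcf7l2 (at most 17.4 CPM).

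Column totals lay between 15232498 and 15370098, so the deposited values had been scaled to a common size and do not show depth. Spacing between low values showed that Lag3-deficient islet library 2 had been multiplied by about 2.79, which puts it near 5.49 M reads, and it held the most tested genes at 0 (927). For Lag3 itself, Lag3-deficient islet libraries had 0 to 1 rescaled counts and Wt islet libraries 40 to 120, while Lag3-deficient NDL libraries had 0 to 3 and Wt NDL libraries 2 to 6. All 7 Treg markers, the factor Foxp3 among them, were above 0 in every library. In each group one library, called 1b, came from a second column headed with the number 1, and these 4 libraries had more ribosomal Rn45s signal (1.26 to 1.68%) than the other libraries (0.149 to 0.571%). Levels are in CPM, computed from the rescaled counts after scaling, and differences are on the scale log2(CPM + 1).

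Id2 and Id3 lie on chromosomes 12 (25093799 to 25097140, minus strand) and 4 (136143497 to 136145755, plus strand) of GRCm38, and neither overlaps another annotated gene. The window searched for motifs in each was the 250 bases before the RefSeq start on GRCm38.p6, at chr12:25096093-25096342 (minus strand) for Id2 and chr4:136143572-136143821 (plus strand) for Id3. GENCODE places starts further upstream, so both windows lie inside the annotated gene spans, with 161 of 250 bases in exons for Id2 and 250 of 250 for Id3. The E box of the Id2 window is shown, as the motif that E proteins bind, with its flanks at chr12:25096271-25096300 (minus strand, GRCm38.p6), a stretch with 0 bases in GENCODE exons; capitals mark the E box, CANNTG, searched on both strands.
Id2 E box: aatttgccacccCAGCTGggctctcgcccg
The Id2 window holds 1 E box, CAGCTG, at position -196 from the start, and the Id3 window holds 0. CANNTG occurs in 66.2% of all 32851 mouse windows of this length, and CAGNTG, a form included in CANNTG, in 44.8%. The Smad motif CAGAC occurs 2 times in the Id3 window and 0 times in the Id2 window, and in 42.2% of all windows. The Egr motif GCGNGGGCG was found in neither, and in 4.7% of all windows.

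Id2 was high in islet Tregs of both genotypes. In library order 1a, 2, 1b it had 181, 160 and 137 CPM in Lag3-deficient islet libraries, 199, 192 and 171 CPM in Wt islet libraries, 42.8, 38.1 and 65.3 CPM in Lag3-deficient NDL libraries and 42.5, 35.6 and 39.7 CPM in Wt NDL libraries. All islet libraries were above all NDL libraries. Group means were 159.5 ± 22.2 CPM in Lag3-deficient islets, 187 ± 14.7 CPM in Wt islets, 48.7 ± 14.5 CPM in Lag3-deficient NDL and 39.3 ± 3.46 CPM in Wt NDL (SD, n = 3 each). The islet mean was 3.27 times the NDL mean in Lag3-deficient cells and 4.77 times in Wt cells. The lowest islet library still had 2.10 times the level of the highest NDL library in Lag3-deficient cells and 4.02 times in Wt cells. Islet minus NDL differences were 1.72 ± 0.52 in Lag3-deficient cells and 2.23 ± 0.52 in Wt cells (log2 ± SE). Over all tested genes, 5.44% were higher in islets with no overlap in Lag3-deficient cells, 8.37% in Wt cells, and 1.32% with all 6 islet libraries above all 6 NDL libraries; nothing is read from these shares for Id2, which was chosen on this contrast.

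Id2 also varied little between libraries of one group. Its residual SD was 0.24 on the log2 scale. Of the 1255 genes within 0.5 log2 of its level, 0.0797% had a smaller one, and their median was 0.82. A gene chosen for a clear tissue difference is favoured to have a small spread, so nothing is read from this share. No genotype difference in Id2 passed the test: Lag3-deficient minus Wt was -0.24 ± 0.52 in islets (95% interval -1.32 to 0.85, limma adjusted p = 0.998) and 0.27 ± 0.52 in NDL (interval -0.82 to 1.36, adjusted p = 1). The difference between these genotype effects was -0.51 ± 0.74 (adjusted p = 1.00). SEs, intervals and p-values are limma's moderated ones, which also draw on the spread of other genes of similar level. For Id2 the SEs, those of the tissue differences included, are larger than its own residual SD of 0.24 would give.

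**Figure D1:**
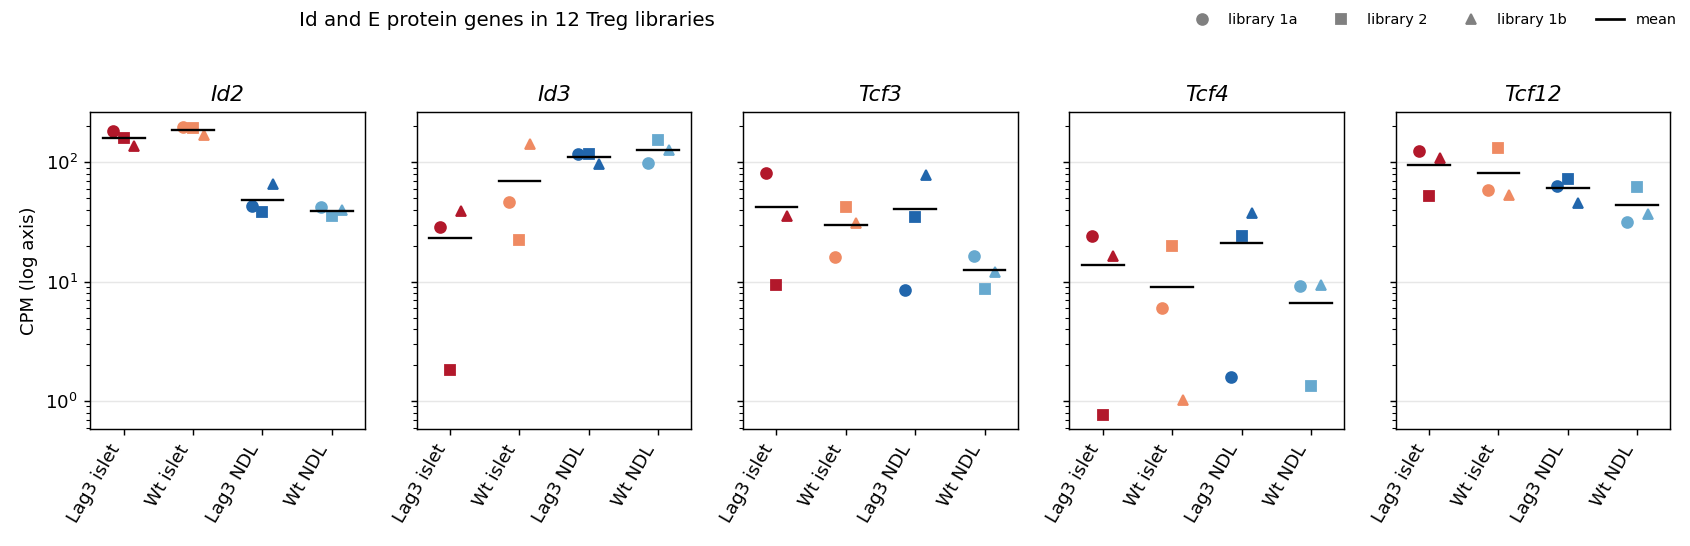
Level of each of the 5 genes in every library (CPM, log axis), by group, with horizontal lines at group means. For Id2 the islet libraries sit between 137 and 199 CPM, above all NDL libraries, which reach at most 65.3 CPM.

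Id3 ran the other way. It had 28.9, 1.82 and 38.7 CPM in Lag3-deficient islet libraries, 46.2, 22.3 and 141 CPM in Wt islet libraries, 117, 117 and 96.8 CPM in Lag3-deficient NDL libraries and 99.3, 153 and 126 CPM in Wt NDL libraries. In Lag3-deficient cells every islet library was below every NDL library, while in Wt cells islet library 1b lay within the NDL range. Means were 23.1 ± 19.1 CPM in Lag3-deficient islets, 69.9 ± 62.9 CPM in Wt islets, 110.0 ± 11.4 CPM in Lag3-deficient NDL and 126 ± 27.1 CPM in Wt NDL (SD, n = 3 each). Islet minus NDL differences were -2.89 ± 0.88 in Lag3-deficient cells, in which 7.28% of tested genes were lower in islets without overlap, and -1.22 ± 0.88 in Wt cells, in which 5.59% were. Without the shallow Lag3-deficient islet library 2 the difference in Lag3-deficient cells was -1.77, and in Wt cells it was -0.61 without islet library 2 and -1.96 without islet library 1b.

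In islets Id3 differed by -1.85 ± 0.88 between Lag3-deficient and Wt cells (interval -3.69 to -0.01). Its unadjusted p was 0.0488 and its limma adjusted p was 0.869, so it did not pass, and 5.74% of tested genes had an unadjusted p that small. Without Lag3-deficient islet library 2, the shallow one, the difference was -0.67, and without Wt islet library 1b it was -1.06. In NDL the difference was -0.18 ± 0.88 (adjusted p = 1), and the genotype effects in the tissues differed by -1.67 ± 1.24 (adjusted p = 1.00).

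Per kilobase of exon, Id2 exceeded Id3 in all Lag3-deficient islet libraries (log2 ratio 0.89 to 5.53) and Id3 exceeded Id2 in every NDL library (Lag3-deficient NDL had log2 ratios of Id2 to Id3 of -2.55 to -1.50, and Wt NDL of -3.04 to -2.16). Wt islets spanned both, from -0.66 to 2.18. Summed, the pair reached 83.5 ± 15.1 CPM per kilobase in Lag3-deficient islets, 132 ± 43.8 in Wt islets, 106 ± 3.22 in Lag3-deficient NDL and 115 ± 19.8 in Wt NDL (SD, n = 3 each). Per kilobase, the sum in Lag3-deficient cells was lower in every islet library (67.2 to 96.9) than in every NDL library (103 to 109). In Wt cells islets (96.3 to 181) and NDL (95.1 to 135) overlapped. These orders depend on the exon lengths used, 2438 bases for Id2 and 1278 for Id3. In CPM without length, no Lag3-deficient islet library had a lower sum than a Lag3-deficient NDL library. Id2 then exceeded Id3 in every islet library of both genotypes.

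**Figure D2:**
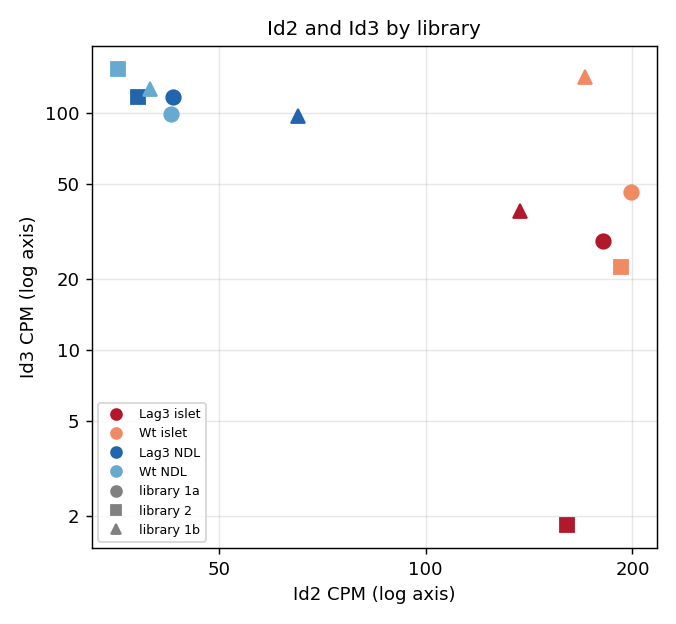
Id2 against Id3 in each library (CPM, log axes), colour for the group and shape for the column. NDL libraries gather at low Id2 and at 96.8 to 153 CPM of Id3, and islet libraries at high Id2 with Id3 between 1.82 and 141 CPM.

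Taken singly, each E protein gene overlapped between the groups compared. Tcf3 (chromosome 10, 80409514 to 80433647, minus strand) had 81.2, 9.36 and 35.8 CPM in Lag3-deficient islet libraries, 16.2, 42.2 and 30.8 CPM in Wt islet libraries, 8.53, 34.5 and 78.5 CPM in Lag3-deficient NDL libraries and 16.5, 8.72 and 11.95 CPM in Wt NDL libraries. Both Lag3-deficient groups held a library near 80 and one under 10 CPM. Islet minus NDL was 0.07 ± 1.05 in Lag3-deficient cells and 1.14 ± 1.05 in Wt cells. Lag3-deficient minus Wt was 0.13 ± 1.05 in islets (limma adjusted p = 0.998) and 1.20 ± 1.05 in NDL (adjusted p = 1).

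Tcf12 (chromosome 9, 71842688 to 72111871, minus strand) varied least of the E protein genes, with a residual SD of 0.57 log2, against 1.15 for Tcf3 and 1.81 for Tcf4. It had 123, 52.5 and 109.5 CPM in Lag3-deficient islet libraries, 59.1, 133 and 52.9 CPM in Wt islet libraries, 62.9, 73.0 and 45.2 CPM in Lag3-deficient NDL libraries and 31.3, 62.0 and 37.2 CPM in Wt NDL libraries. The groups overlapped in both genotypes. Islet minus NDL was 0.58 ± 0.64 in Lag3-deficient cells and 0.83 ± 0.64 in Wt cells. Lag3-deficient minus Wt was 0.25 ± 0.64 in islets (adjusted p = 0.998) and 0.50 ± 0.64 in NDL (adjusted p = 1). Small annotated genes overlap this locus, and whether counting used strand is not given in the sources used here.

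Tcf4, on chromosome 18, was the weakest of the 5 per kilobase of exon in every group by mean. It had 24.0, 0.771 and 16.4 CPM in Lag3-deficient islet libraries, 6.005, 19.95 and 1.02 CPM in Wt islet libraries, 1.58, 24.2 and 37.5 CPM in Lag3-deficient NDL libraries and 9.27, 1.33 and 9.42 CPM in Wt NDL libraries. The groups overlapped in both tissues and both genotypes. Islet minus NDL was -0.57 ± 1.51 in Lag3-deficient cells and 0.08 ± 1.51 in Wt cells, and Lag3-deficient minus Wt was 0.46 ± 1.51 in islets (adjusted p = 0.998) and 1.11 ± 1.51 in NDL (adjusted p = 1).

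Per kilobase, the E protein genes together reached 28.2 ± 17.3 CPM in Lag3-deficient islets, 21.98 ± 10.7 in Wt islets, 23.1 ± 10.96 in Lag3-deficient NDL and 10.8 ± 1.06 in Wt NDL (SD, n = 3 each). Single libraries of Lag3-deficient islets held 10.7 to 45.3, those of Wt islets 14.2 to 34.2, those of Lag3-deficient NDL 12.04 to 33.9, and those of Wt NDL 9.91 to 11.96. Wt NDL thus lay below Wt islets and, by a narrow margin, below Lag3-deficient NDL, a pattern seen after the values were known and not tested. Tcf12 had the highest mean per kilobase in Lag3-deficient islets (14.0), Wt islets (12.02) and Wt NDL (6.41), and Tcf3 in Lag3-deficient NDL (12.6, against 8.89 for Tcf12). Per kilobase, the log2 ratio of the summed Id genes to the summed E protein genes was above 0 in every library. It lay in Lag3-deficient islets at 1.10 to 2.65 and in Wt islets at 1.49 to 3.37. In Lag3-deficient NDL it lay at 1.59 to 3.18, and in Wt NDL at 3.18 to 3.54. Orders between genes depend on the exon lengths used. In CPM without length, the Id sum was below the E protein sum in Lag3-deficient islet library 1a.

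Tcf3 and Tcf4 followed each other from library to library, a relation noticed after the values were seen. Over 12 libraries Pearson's r was 0.78 and Spearman's rho 0.78, and r was 0.67 over the 10 left without Lag3-deficient islet library 1a and Lag3-deficient NDL library 1b. After subtraction of group means r was 0.83. The points share library depth and scaling, so these are descriptions.

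**Figure D3:**
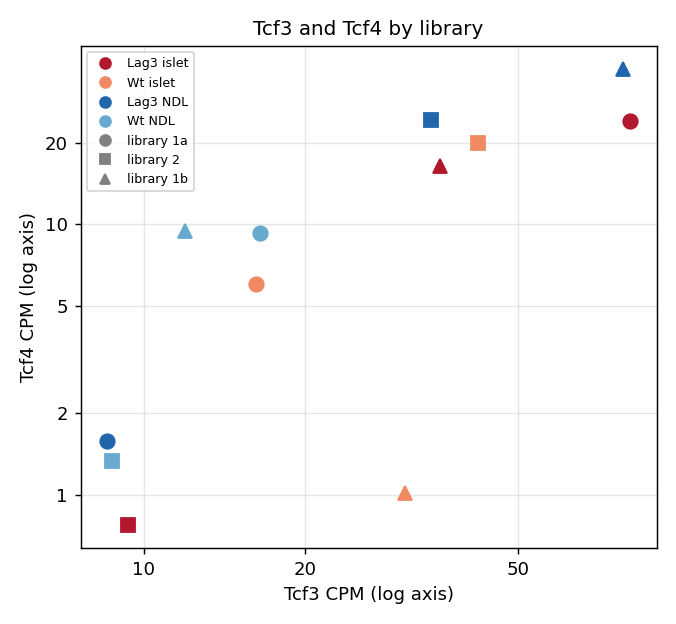
Tcf3 against Tcf4 in each library (CPM, log axes), colour for the group and shape for the column. Libraries with under 10 CPM of Tcf3 have at most 1.58 CPM of Tcf4, and the 4 groups are intermixed.

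Across the 5 genes, 0 passed the test in any of the 4 genotype comparisons: in islets, in NDL, averaged over both tissues, and the difference between tissues. The background was 0% of 10868 genes in each, and unadjusted p-values under 0.05 covered 5.74%, 2.72%, 3.68% and 4.02% of genes. None of the 5 had genotype groups without overlap, against 9.32% of tested genes in islets, 7.53% in NDL and 0.101% over both tissues. Averaged over both tissues, the differences were 0.02 ± 0.37 for Id2, -1.02 ± 0.62 for Id3, 0.67 ± 0.74 for Tcf3, 0.38 ± 0.45 for Tcf12 and 0.78 ± 1.06 for Tcf4 (limma adjusted p = 0.999 for each). The median of all tested genes was -0.22 in islets, -0.02 in NDL and -0.13 averaged.

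**Figure D4:**
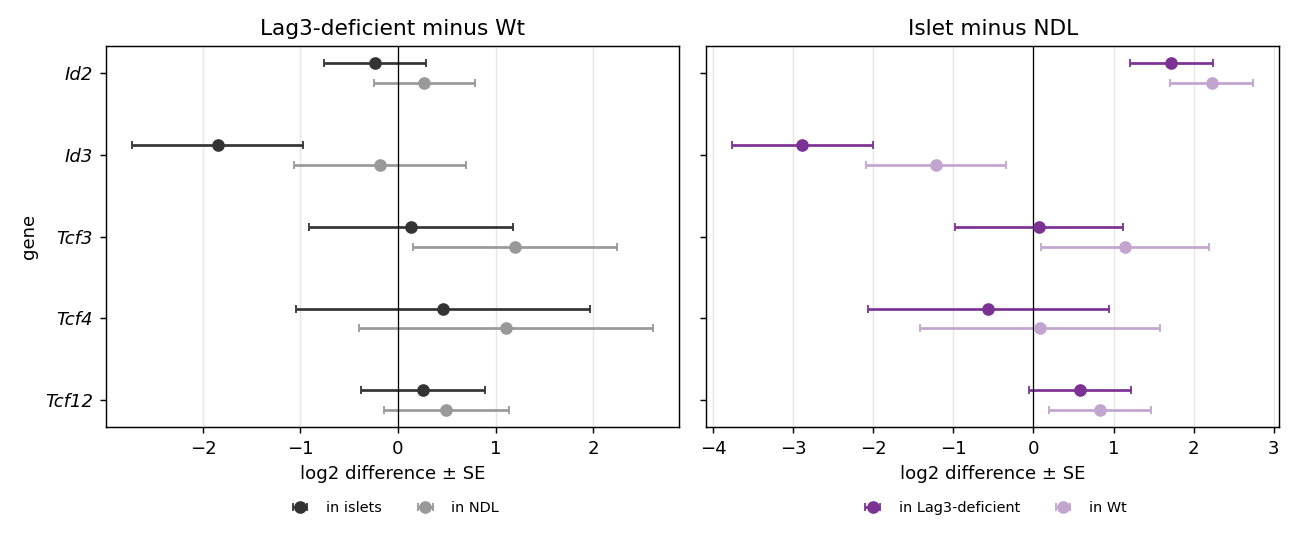
Fitted log2 differences of the 5 genes with their SE, for Lag3-deficient minus Wt and for islet minus NDL. Genotype differences of Id2 stay near 0 (-0.24 and 0.27) while its tissue differences are 1.72 and 2.23.

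The other Id genes were detected in few libraries. Id1 reached 7.52 CPM in Wt islet library 1a, 3.37 CPM in Wt islet library 2 and 26.2 CPM in Lag3-deficient NDL library 2, and at most 0.165 CPM in the others. In Lag3-deficient NDL library 2 it had 22.6 CPM per kilobase, against 15.6 for Id2. Its genotype effects in the tissues differed by -3.19 ± 1.48, which did not pass (adjusted p = 1.00). Id4 reached 12.6 CPM in Wt islet library 2 and was too low elsewhere to be tested.

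Genes around the Id and E protein axis were read in 7 lists, none of which had a gene passing any genotype comparison. The lists were chosen with earlier results of these data known. How many genes of a list passed islet minus NDL is therefore a description of that list. Averaged over both genotypes, islet minus NDL had 0.920% of tested genes past the threshold, against 0.120% in Lag3-deficient cells alone and 0.184% in Wt cells alone, where no gene of these lists passed. Of the 19 tested regulators of Id expression, of 24 listed, 0 passed, with a median of -0.27 against -0.04 for all genes; the activin receptor Acvr2a had -2.54 ± 0.75 (adjusted p = 0.137). Of the 11 tested helix-loop-helix partners and cofactors, 1 was higher in islets, Bhlhe40, a repressor that binds E boxes, at 4.17 ± 0.80 (limma adjusted p = 0.0125). Of the 5 genes of Id and E protein turnover, 0 passed, with a median of -0.000338.

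Of the 11 tested genes that E proteins activate in lymphocytes, 2 were higher in islets and 0 lower, with a median of 1.17. The chemokine receptor Cxcr4 had a mean of 111 CPM in Lag3-deficient islets, 96.5 in Wt islets, 8.92 in Lag3-deficient NDL and 20.7 in Wt NDL, a difference of 2.87 ± 0.58 (adjusted p = 0.0172). Gfi1, a transcriptional repressor, had a difference of 3.71 ± 0.82 (adjusted p = 0.0326). Of the 6 tested follicular T cell genes 0 passed; the receptor Pdcd1 had 1.74 ± 0.46 (adjusted p = 0.0902) and Cxcr5, which stands in both lists, 2.55 ± 0.72 (adjusted p = 0.115).

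Of the 9 effector differentiation factors, 2 were higher in islets, Bhlhe40 again and Maf, a factor of cytokine expression, at 1.96 ± 0.41 (adjusted p = 0.0200), and the list median was 1.29. Of the 7 naive and memory factors, 1 was lower, Bach2, a repressor of effector genes, at -3.19 ± 0.61 (adjusted p = 0.0125), with a list median of -0.95. Bach2 averaged 20.8 CPM in Lag3-deficient islets, 7.59 in Wt islets, 109 in Lag3-deficient NDL and 137 in Wt NDL.

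Each of these calls was lost under some alternative. With no filter on low values Bhlhe40 had an adjusted p of 0.0907, Maf 0.182 and Gfi1 0.0653, and without the 4 libraries 1b Cxcr4 had 0.0810 and Gfi1 0.202. With single libraries left out Bhlhe40 had 0.0103 to 0.0481. Bach2 had 0.0567 without Lag3-deficient NDL library 2, and Cxcr4 had 0.0630 without Lag3-deficient islet library 1a and 0.0889 without Wt islet library 1a. Maf missed the threshold without Wt islet library 2 (0.0544) or 1b (0.0705), Lag3-deficient NDL library 1a (0.0620) or 2 (0.0567), and Wt NDL library 1a (0.0617) or 2 (0.0687). Gfi1 missed it without library 1a (0.0698) or 1b (0.0789) of Lag3-deficient islets, 1a (0.115) or 1b (0.102) of Wt islets, 1a (0.0819) or 2 (0.0569) of Lag3-deficient NDL, and 2 (0.0723) or 1b (0.0629) of Wt NDL.

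**Figure D5:**
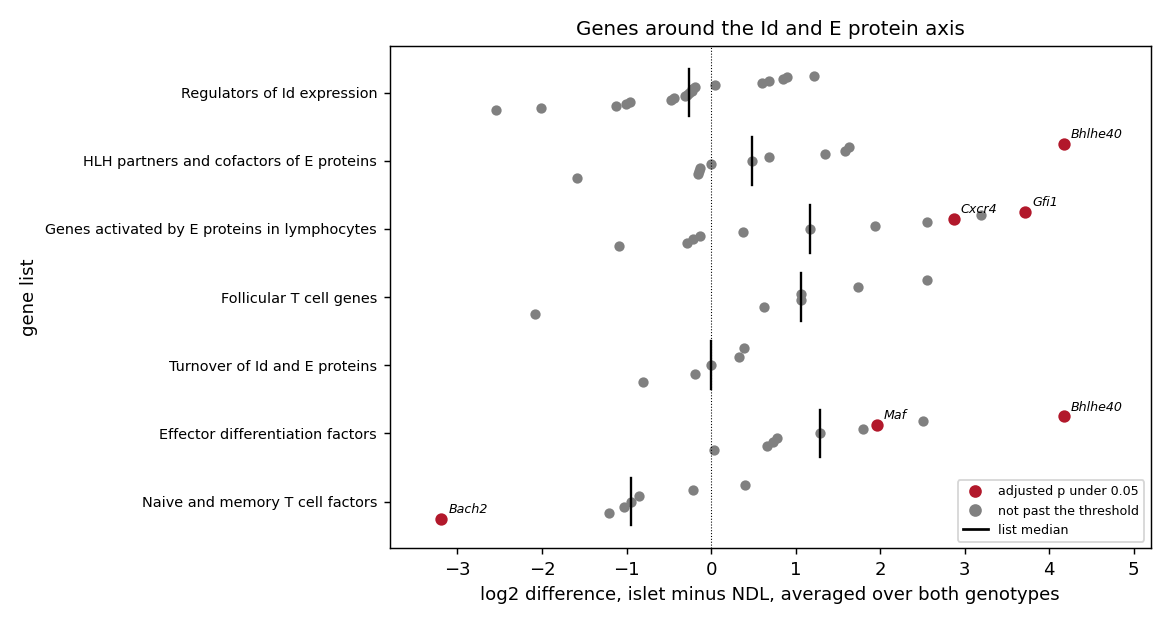
Islet minus NDL log2 difference, averaged over both genotypes, of each tested gene in the 7 lists; black bars are list medians and red points passed the test. Bhlhe40, Cxcr4, Gfi1 and Maf lie to the right and Bach2 to the left.

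Only some lists of markers of other cell types moved with the tissue. Exocrine, endocrine, myeloid and plasmacytoid dendritic sums were higher in every islet library than in every NDL library. Over both genotypes, natural killer and innate lymphoid, B cell, endothelial and stromal, and CD8 sums overlapped between the tissues. Pancreatic exocrine markers summed in Lag3-deficient islets to 33.5 to 539 CPM, in Wt islets to 168 to 2839, in Lag3-deficient NDL to 0 to 1.01, and in Wt NDL to 0.121 to 4.79, with 10 of 11 higher by mean in islets and 4 of the 11 at 0 in most libraries. Myeloid markers summed in Lag3-deficient islets to 58.7 to 184 CPM and in Wt islets to 114 to 222. In Lag3-deficient NDL they summed to 1.27 to 37.6, and in Wt NDL to 0.290 to 15.9. By mean 9 of 9 were higher in islets, 3 of them at 0 in most libraries. Cybb led the islet sums, at means of 99.96 CPM in Lag3-deficient islets and 99.5 in Wt islets. Natural killer and innate lymphoid markers, of cells in which Id2 is known to be high, summed in Lag3-deficient islets to 92.3 to 759 CPM, in Wt islets to 376 to 710, in Lag3-deficient NDL to 182 to 272, and in Wt NDL to 109 to 154, with 11 of 12 higher by mean in islets; 5 of the 12 were at 0 in most libraries. The cytotoxic granule gene Nkg7 led the sum. Its means were 287 CPM in Lag3-deficient islets, 317 in Wt islets, 77.1 in Lag3-deficient NDL and 24.6 in Wt NDL. The natural killer receptors Ncr1 and Klrb1c reached at most 2.41 and 0.330 CPM. Gata3 and Rora of this list also stand among the effector differentiation factors above, so they do not mark other cells alone. Il1rl1 had means of 38.1 CPM in Lag3-deficient islets, 47.7 in Wt islets, 36.0 in Lag3-deficient NDL and 14.9 in Wt NDL. Klrg1 had 36.5, 20.1, 14.1 and 5.75 CPM in the same order. Whether Nkg7, Il1rl1 and Klrg1 came from Tregs or from other cells was not tested.

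Plasmacytoid dendritic markers, of cells that depend on Tcf4, summed in Lag3-deficient islets to 87.2 to 146 CPM and in Wt islets to 126 to 232. In Lag3-deficient NDL they summed to 22.6 to 76.5, and in Wt NDL to 38.3 to 40.1, with 4 of 5 higher by mean in islets. Irf8 led the islet sums, at means of 70.2 CPM in Lag3-deficient islets and 132 in Wt islets. Siglech reached at most 0.441 CPM in Lag3-deficient islets and 48.4 in Wt islets. B cell markers summed in Lag3-deficient islets to 7.35 to 221 CPM, in Wt islets to 44.5 to 240, in Lag3-deficient NDL to 22.6 to 83.5, and in Wt NDL to 28.1 to 106, with 7 of 8 higher by mean in islets, 2 of the 8 at 0 in most libraries and Pax5 at 0 throughout. Endocrine markers summed in Lag3-deficient islets to 2.81 to 38.3 CPM, in Wt islets to 9.98 to 227, in Lag3-deficient NDL to 0 to 0.315, and in Wt NDL to 0 to 0.788, with 8 of 9 higher by mean in islets. Of the 9, 5 were at 0 in most libraries and 3 never reached 1 CPM. Endothelial and stromal markers summed in Lag3-deficient islets to 17.6 to 180 CPM, in Wt islets to 5.69 to 30.0, in Lag3-deficient NDL to 26.4 to 56.4, and in Wt NDL to 7.53 to 114, so their sums overlapped between the tissues. By mean 9 of 11 were higher in islets, but 4 of the 11 never reached 1 CPM and 3 were at 0 in most libraries. The sum of 180 CPM was that of Lag3-deficient islet library 1b, which also held the highest Dcn (76.3 CPM) and Col3a1 (51.5 CPM). Pecam1, the most abundant, had means of 18.3 CPM in Lag3-deficient islets, 17.2 in Wt islets, 44.7 in Lag3-deficient NDL and 58.3 in Wt NDL. The CD8 genes summed in Lag3-deficient islets to 0.302 to 16.4 CPM, in Wt islets to 0.610 to 3.93, in Lag3-deficient NDL to 5.71 to 13.4, and in Wt NDL to 0.121 to 1.84. Treg markers summed in Lag3-deficient islets to 4354 to 7810 CPM and in Wt islets to 5157 to 6231. In Lag3-deficient NDL they summed to 3121 to 3833, and in Wt NDL to 4075 to 4237. By mean 4 of 7 were higher in islets. Ctla4 had 2545 CPM in Lag3-deficient islets, 2297 in Wt islets, 307 in Lag3-deficient NDL and 472 in Wt NDL. Foxp3, Il2ra and Cd4 were lower in islets. Foxp3 had 349 CPM in Lag3-deficient islets, 400 in Wt islets, 500 in Lag3-deficient NDL and 572 in Wt NDL. The part of these cells in the tissue differences was not tested, and in bulk RNA a change in cell number and a change in RNA per cell cannot be told apart.

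Likeness to Id2 over the 12 libraries was ranked by Pearson's r among 5424 genes with a mean of at least 4 on the log2 scale. Highest were Dusp1 (r = 0.98), Fos (0.97), Zfand5 (0.97), Hspa1a (0.97) and Igj (0.96). Their Spearman's rho was 0.94, 0.78, 0.92, 0.76 and 0.83, in that order. Fos and Dusp1 are immediate-early genes and Hspa1a encodes a stress-induced chaperone. Fos averaged 436 CPM in Lag3-deficient islets, 395 in Wt islets, 4.40 in Lag3-deficient NDL and 2.49 in Wt NDL, and Hspa1a averaged 934 CPM in Lag3-deficient islets, 809 in Wt islets, 0.610 in Lag3-deficient NDL and 0.0205 in Wt NDL. Their part in the Id2 difference was not tested. Least like Id2 were Bach2 (-0.93), Ppcdc (-0.88) and Herc1 (-0.88). For Id3 the closest were Pik3cd (0.95), Dnahc8 (0.93), Ids (0.93), Ldb1 (0.92) and BC094916 (0.92). Their Spearman's rho was lower, at 0.85, 0.71, 0.77, 0.66 and 0.71 in that order. Each had its lowest value in the Lag3-deficient islet group, from 0 to 2.75 CPM. Id3 itself was lowest there too, at 1.82 CPM in the shallow library 2. Least like Id3 were Trp53inp1 (-0.88), Purb (-0.84) and Kpnb1 (-0.83). All these values are descriptions over libraries that fall into the same tissue groups. Between the members, Id2 and Id3 had r = -0.63, and -0.24 after subtraction of group means.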

How the data were processed

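Values for 12 RNA-seq libraries were deposited by the authors as a signal, whole numbers rescaled to nearly equal totals, with a second, further normalised signal table used as an alternative. TopHat2, DESeq2 and mm10 are named in the submitters' processing notes, without versions or roles; the sources used here give neither the rescaling method nor the strand setting. Column names gave genotype and tissue but repeated the number 1, so columns were mapped to groups and called 1a, 2 and 1b. As the values are not raw counts, no count model and no counting intervals were used. The scaling step of a column was read from gaps between low values and resolved in libraries that had been scaled up.

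Genes reaching 10 rescaled counts in 3 or more libraries were kept, scaled by trimmed means of log ratios (30% of ratios, 5% of levels trimmed), and fitted as log2(CPM + 1) with limma 3.58.1 (trend) in R 4.3.3 over all 4 groups, with 8 residual degrees of freedom before moderation. P-values were adjusted by Benjamini-Hochberg over 10868 genes, with a threshold of 0.05. The pseudocount of 1 CPM understates changes of weak genes. Named were the 5 members, Id1, Id4, genes of the pathway lists that passed or had the smallest p, and the 5 genes most and 3 least correlated with Id2 and Id3, without predicted genes. The members and lists were chosen with earlier results of these data known. Exon lengths came from GENCODE vM21 on GRCm38 and promoters from RefSeq on GRCm38.p6. The scripts were tested on simulated data with known answers. Alternatives were other scalings, pseudocounts and filters, the second table, single libraries left out, libraries 1b left out, a replicate block, and only the groups compared.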

Additional observations from a re-analysis of the deposited data

How the results depend on the processing

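No alternative brought any of the 5 genes past the threshold in a genotype comparison. Id2 and Id3 kept the sign of their tissue differences in every alternative. Nothing is read from this for Id2, which was chosen on this contrast and had all islet libraries above all NDL libraries. Genes past the threshold numbered 0 in islets by genotype, and 0 to 16 with single libraries left out, the 16 without Lag3-deficient islet library 1b. For islet minus NDL in Lag3-deficient cells there were 13, against 26 with median-ratio scaling, 7 with no filter, 31 in the second table, 23 without the 4 libraries 1b, 8 with only the groups compared, and 9 to 32 with single libraries left out (32 without Lag3-deficient islet library 1b). In Wt cells there were 20, against 11 with no filter, 8 without libraries 1b, 11 with the replicate block, 32 with only the groups compared, and 9 to 24 with single libraries left out (9 without Wt islet library 1a, 11 without Wt islet library 1b or any Wt NDL library). Averaged there were 100, against 65 to 109 with single libraries left out (65 without Wt islet library 1a). The other alternatives gave 40 to 138, with 40 under no filter and 45 without libraries 1b.

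The median over all genes for Lag3-deficient minus Wt in islets was -0.22, against -0.03 with median-ratio scaling, -0.15 with column totals only, 0.0030 with no filter, 0.012 in the second table, -0.38 without libraries 1b, and -0.019 without the shallow Lag3-deficient islet library 2 alone.

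Signs turned for small differences. Without libraries 1b, Lag3-deficient minus Wt in islets was -0.83 for Tcf4 and -0.048 for Tcf12, the averaged genotype difference was -0.012 for Id2 and -0.042 for Tcf4, and averaged islet minus NDL was 0.48 for Tcf4. In the second table Tcf4 had 0.29 for the difference of genotype effects and, for islet minus NDL, 0.28 in Lag3-deficient cells, -0.00209 in Wt cells and 0.14 averaged. With column totals only, islet minus NDL was -0.032 for Tcf3 in Lag3-deficient cells and -0.0031 for Tcf4 in Wt cells. Averaged Id1 was 0.087 with a pseudocount of 4 and 0.13 in the second table. With single libraries left out, the islet genotype difference ran from -0.56 to 0.91 for Tcf3 and -0.32 to 1.61 for Tcf4; the averaged one from -0.10 to 0.12 for Id2 and -0.47 to 0.36 for Id1; the difference of effects from -1.84 to 0.50 for Tcf4 and -0.52 to 0.17 for Tcf12. Islet minus NDL ran from -0.75 to 0.79 for Tcf3 and -1.77 to 0.55 for Tcf4 in Lag3-deficient cells, and for Tcf4 from -0.75 to 0.91 in Wt cells and -0.85 to 0.30 averaged. The cause was not tested.

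Deviations of same-numbered libraries of different groups had correlations of -0.0857 to 0.157. Most were under 0.1 and some were negative, and the numbers were not taken as pairs. A library correlated best with its own number in 21 of 36 cases, against 12 if numbers carried nothing, a hint from the data that some number-linked variation is shared; libraries 1b also share high Rn45s. The block changed no call of a named gene. Depth before scaling is unknown for most libraries, and weak genes such as Tcf4 are the least certain.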
